A study of Drosophila melanogaster with 4 samples.

Results

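The genes described here are 10 components of the BMP and Hedgehog pathways, chosen by symbol: the ligands *dpp* and *gbb*, the receptors *tkv*, *sax* and *put*, the Smad proteins *Mad* and *Med*, and *hh*, *ptc* and *smo* of the Hedgehog pathway. All 10 were found among the 13771 genes of the count table, and all 10 had enough counts to be tested. RNA had been isolated from testes of 5-day-old males of the wild-type stock Canton S (WT) and of males carrying *sws1*, a mutant allele of *Swiss cheese*, and each genotype was represented by 2 libraries, each made from 30 testis pairs. *Swiss cheese* encodes a phospholipase of the family that includes human PNPLA6. No transgene or driver was used, and the labels give no other allele for either group. Each genotype is a single stock, so the allele and the genetic background of the stock cannot be told apart.

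BMP ligands are secreted proteins that bring type I and type II receptor kinases together, after which the phosphorylated Mad protein joins Med in the nucleus. In the testis, BMP signals from the hub and the cyst stem cells keep germline stem cells from differentiating, in part by repressing *bam*. Hedgehog is released by hub cells and relieves the inhibition of Smo by Ptc in cyst stem cells, and *ptc* is itself switched on by the pathway. The comparison between genotypes asks whether the RNA of these niche signals differs in testes of the mutant.

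The libraries held between 2218335 and 4498060 counts, of which the 10 genes together took between 587 and 924. Reads of a gene were summed over its transcripts and are given as raw counts and as CPM, the counts scaled to a common library size by the TMM method. Paired values are given with replicate 1 first. Counts of the mutated gene, *sws*, were 662 and 500 in WT against 166 and 179 in *sws1*, so it was lower in both libraries labelled as mutant. The labelled tissue was checked with 7 spermatid markers, all of which were present, and their summed level was 10110 to 10400 CPM in WT and 6757 to 7162 CPM in *sws1*. The summed level of 6 accessory gland markers was 30.1 and 34.4 CPM in WT against 1055 and 418 CPM in *sws1* replicates 1 and 2, and all 6 were higher in both *sws1* libraries. The part of these shifts in the values below was not tested. In such bulk samples, fewer cells of a type and less RNA per cell cannot be told apart.

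Of the 10 genes, *ptc* fell in *sws1* testes to less than its level in either WT library, and the other 9 did not pass the thresholds of edgeR's quasi-likelihood test. A gene was called when its Benjamini-Hochberg adjusted p over 9634 tested genes was under 0.05 and its absolute log2 fold change (log2FC, *sws1* minus WT) was above 0.3. By this rule 20.9% of all tested genes were called, 9.38% being higher and 11.5% lower in *sws1*. In numbers, 904 genes were higher and 1109 lower, and with upper-quartile scaling this balance turned to 1111 higher and 938 lower. Of the signalling genes, 1 of 10 was called, and it was lower. The libraries of the genotypes did not overlap in CPM for 7 of the 10, against 60.2% of all tested genes. The log2FC was positive for 8 of the 10, with a median of 0.29, and for 5002 of the 9634 tested genes, with a median of 0.02.

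**Figure D1:**
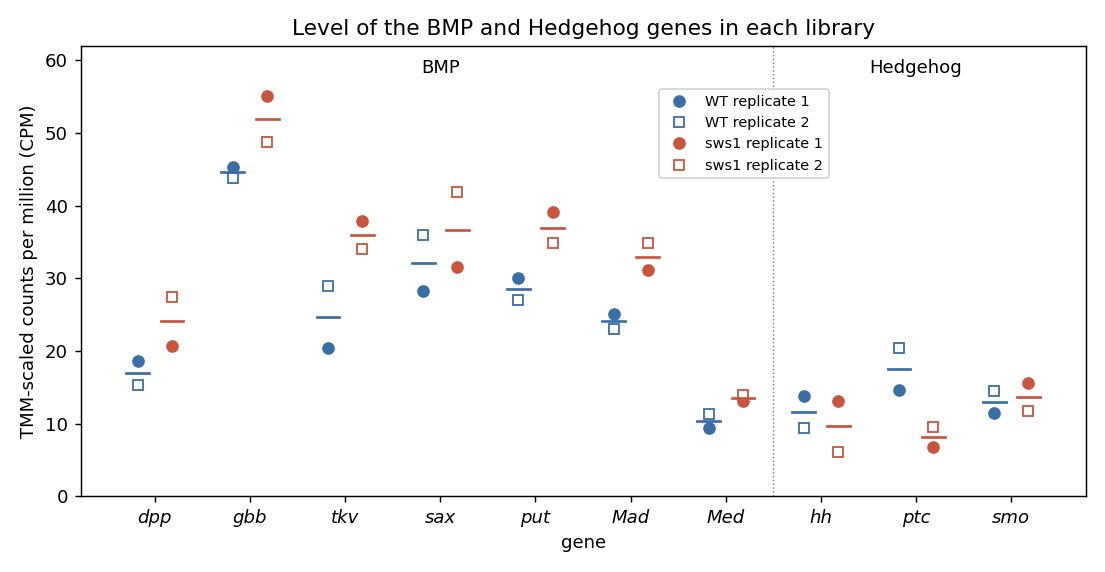
Level of each gene (vertical axis, TMM-scaled CPM) in each of the 4 libraries, with circles for replicate 1, squares for replicate 2 and a short line for the mean of the genotype. The *sws1* libraries lie below the WT libraries for *ptc* and above them for 6 BMP genes, and they overlap with them for *sax*, *hh* and *smo*.

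Among all members, *gbb* had the highest level and *ptc* the lowest in the mutant. Levels of different genes are compared here per kilobase (kb) of the union of a gene's exons. In WT the order was *gbb* (26.5 ± 0.637 CPM per kb, SD, n = 2), *sax* (11.2 ± 1.93), *put* (7.11 ± 0.542), *Mad* (7.07 ± 0.425), *tkv* (5.57 ± 1.36), *hh* (4.91 ± 1.33), *dpp* (3.24 ± 0.448), *smo* (3.24 ± 0.523), *ptc* (3.16 ± 0.741) and *Med* (3.03 ± 0.403). The libraries overlapped between the neighbours *put* and *Mad*, *tkv* and *hh*, and along the run from *dpp* to *Med*, so these could not be ranked. Among all 13771 genes, *gbb* lay above 73.7% in WT and *Med* above 39.6%. Only 9634 of the 13771 had enough counts to be tested, so these percentages include many genes with few or no counts.

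In *sws1* the order began again with *gbb* (30.8 ± 2.62 CPM per kb, SD, n = 2) and *sax* (12.8 ± 2.55) and ended with *ptc* (1.48 ± 0.359), whose libraries lay below those of its neighbour *smo* (3.41 ± 0.669). The neighbours *Mad* and *put*, and those along the run from *dpp* through *hh* and *Med* to *smo*, overlapped. With *ptc* the percentage of genes at a lower level went from 40.1% in WT to 28.1% in *sws1*.

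The ligand gene *dpp* (FBgn0000490, 2L, 2428372 to 2459823, BDGP6.54 annotation) encodes the BMP that also patterns the dorsal embryo and the wing. It had 79 and 39 counts in WT against 52 and 63 in *sws1*, or 18.6 and 15.3 CPM against 20.7 and 27.5 CPM. Both mutant libraries were above both WT libraries, and *sws1* replicate 2 was the highest. The log2FC was 0.49 (standard error, SE, 0.23, 95% interval 0.01 to 0.96), with an unadjusted p of 0.046 and an adjusted p of 0.143 by edgeR. Without *sws1* replicate 2 the log2FC of *dpp* was 0.27 (adjusted p = 0.596, edgeR).

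The other ligand gene, *gbb* (FBgn0024234, 2R, 23851562 to 23853247), encodes a BMP that acts with Dpp in the testis niche and signals at the neuromuscular junction. Its 193 and 112 counts in WT against 138 and 112 in *sws1* came to 45.4 and 43.8 CPM against 55.1 and 48.8 CPM. The groups did not overlap, but the log2FC of 0.22 (95% interval −0.13 to 0.57) did not pass the test (adjusted p = 0.394, edgeR). Set against each other within a library, which needs no scaling, *dpp* made up 29.0% and 25.8% of the counts of both ligands in WT and 27.4% and 36.0% in *sws1*. The highest and lowest of these shares had Wilson 95% intervals of 29.3 to 43.3 and 19.5 to 33.3, so the ligands' proportions overlapped between genotypes. These intervals cover counting error only.

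The type I receptor gene *tkv* (FBgn0003716, 2L, 5219000 to 5271384), whose product is the main receptor for Dpp, had the largest positive log2FC of the 10 genes. It had 87 and 74 counts in WT against 95 and 78 in *sws1*, or 20.4 and 29.0 CPM against 37.9 and 34.0 CPM. All mutant values exceeded all WT values, and the WT libraries differed from each other more than the mutant ones did. The log2FC was 0.57 (SE 0.21, 95% interval 0.14 to 1.01, adjusted p = 0.057, edgeR), just short of the threshold. The call depended on the settings: the adjusted p was 0.0304 with upper-quartile scaling, 0.0443 with no filter on low counts, 0.0475 with at least 10 counts required in every library and 0.0143 without WT replicate 2, and it was 0.528 with DESeq2. Without WT replicate 1 the log2FC of *tkv* was 0.31 (adjusted p = 0.481, edgeR), and without *sws1* replicate 1 it was 0.50 (adjusted p = 0.2, edgeR).

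The second type I receptor gene, *sax* (FBgn0003317, 2R, 7806484 to 7810067), encodes a receptor with a preference for Gbb. With 120 and 92 counts in WT against 79 and 96 in *sws1*, it stood at 28.2 and 36.0 CPM against 31.5 and 41.8 CPM. The genotypes overlapped, and replicate 2 was the higher library in both. The log2FC was 0.21 (95% interval −0.22 to 0.63, adjusted p = 0.521, edgeR). *tkv* took 42.0% and 44.6% of the counts of both type I receptors in WT and 54.6% and 44.8% in *sws1*, so only *sws1* replicate 1 had more *tkv* than *sax* counts.

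*put* (FBgn0003169, 3R, 14619030 to 14625703) encodes the type II receptor shared by the BMP and activin branches. It had 128 and 69 counts in WT against 98 and 80 in *sws1*, which is 30.1 and 27.0 CPM against 39.1 and 34.9 CPM. Mutant libraries were above WT libraries without overlap. The log2FC of 0.37 (95% interval −0.03 to 0.77) did not pass the test (adjusted p = 0.188, edgeR).

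*Mad* (FBgn0011648, 2L, 3146056 to 3159643), the Smad that the receptors phosphorylate, had 107 and 59 counts in WT against 78 and 80 in *sws1*. Its level was 25.1 and 23.1 CPM in WT against 31.1 and 34.9 CPM in *sws1*, again without overlap. The log2FC was 0.44 (SE 0.20, 95% interval 0.03 to 0.85), with an unadjusted p of 0.0361 and an adjusted p of 0.12 (edgeR). *Med* (FBgn0288966, 3R, 31611046 to 31615375), the Smad partner common to both branches, was the least counted BMP gene, with 40 and 29 counts in WT against 33 and 32 in *sws1*. Its 9.40 and 11.4 CPM in WT lay below the 13.2 and 13.9 CPM in *sws1*, and the log2FC was 0.40 (95% interval −0.19 to 0.997, adjusted p = 0.348, edgeR).

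Seen together, the 7 BMP genes had log2FC values between 0.21 and 0.57 with a median of 0.40. The libraries of the genotypes did not overlap for 6 of the 7, against 60.2% of all tested genes. Counts of the 7 BMP genes summed to 177 and 186 CPM in WT and to 229 and 236 CPM in *sws1*. With edgeR 0 of the 7 passed the test, 3 of them at an unadjusted p under 0.05 (*dpp*, *tkv* and *Mad*), as had 33.1% of all tested genes, and with DESeq2 0 of the 7 had such a p. The 7 values rest on the same 4 libraries and are not independent of each other. When single libraries were removed, log2FC values stayed above 0 for *dpp*, *gbb*, *tkv*, *put*, *Mad* and *Med*, but it was as low as 0.13 for *gbb* without *sws1* replicate 1 and 0.26 for *Med* without WT replicate 1, and that of *sax* was −0.0063 without *sws1* replicate 2. The intervals of the 7 genes reach at most 1.01, so a rise above about that size on the log2 scale lies outside the interval of each of them.

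**Figure D2:**
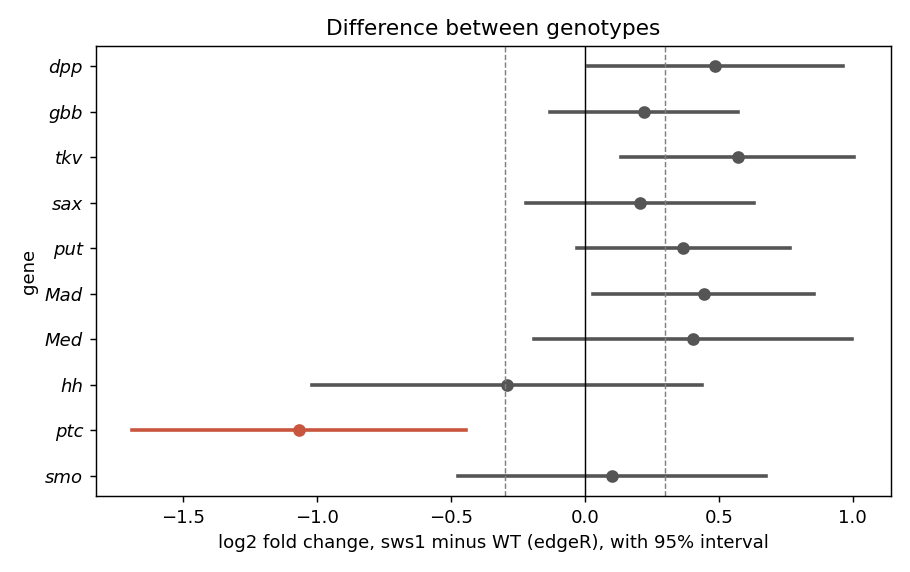
Log2 fold change of each gene (horizontal axis, *sws1* minus WT, edgeR on counts summed per gene), with lines for 95% intervals and dashed lines at ±0.3. Only *ptc*, in red, was called, at −1.07 (interval −1.69 to −0.44). The points of the 7 BMP genes lie to the right of 0, but the intervals of *gbb*, *sax*, *put* and *Med* cross 0.

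The Hedgehog ligand gene *hh* (FBgn0004644, 3R, 23128169 to 23141906) had 59 and 24 counts in WT against 33 and 14 in *sws1*. At 13.9 and 9.39 CPM in WT against 13.2 and 6.10 CPM in *sws1*, the genotypes overlapped, and replicate 1 was the higher library in both. The log2FC was −0.29 (SE 0.35, adjusted p = 0.602, edgeR), and its 95% interval ran from −1.02 to 0.44. Its direction turned to 0.05 without WT replicate 1 and to 0.13 without *sws1* replicate 2.

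*ptc* (FBgn0003892, 2R, 8649649 to 8665223) encodes the Hedgehog receptor, which holds Smo inactive until it binds the ligand. It had 62 and 52 counts in WT against 17 and 22 in *sws1*, or 14.6 and 20.4 CPM against 6.78 and 9.59 CPM. Both mutant libraries lay below both WT libraries. The mean level was 17.5 ± 4.09 CPM in WT and 8.19 ± 1.98 CPM in *sws1* (SD, n = 2 each), 2.13-fold lower in the mutant. The log2FC was −1.07 (SE 0.30, 95% interval −1.69 to −0.44, adjusted p = 0.0133, edgeR). The call depended on the test and on single libraries. DESeq2 on the same counts gave −1.10 (SE 0.55, adjusted p = 0.267), and the adjusted p was 0.114 without WT replicate 2 (log2FC −0.85) and 0.108 without *sws1* replicate 1 (log2FC −0.82). With a library left out, the lone sample of a genotype is assumed to vary like those of the other.

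*smo* (FBgn0003444, 2L, 277582 to 282167), whose product passes the signal into the cell once Ptc is bound, had 49 and 37 counts in WT against 39 and 27 in *sws1*. Its 11.5 and 14.5 CPM in WT against 15.6 and 11.8 CPM in *sws1* overlapped, and the log2FC was 0.10 (95% interval −0.47 to 0.67, adjusted p = 0.837, edgeR). The sign of this small difference turned without WT replicate 1 (−0.08) and without *sws1* replicate 1 (−0.11).

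Within a library, and so without any scaling, there were 1.27 and 1.41 *ptc* counts for each *smo* count in WT and 0.436 and 0.815 in *sws1*. As a share of the counts of both genes, *ptc* made up 55.9% (Wilson 95% interval 46.6 to 64.7) and 58.4% (48.0 to 68.1) in WT. In *sws1* this share was 30.4% (19.9 to 43.3) and 44.9% (31.9 to 58.7). The interval of *sws1* replicate 1 lay below both WT intervals, and that of *sws1* replicate 2 overlapped them. Against *hh*, the *ptc* counts were 1.05 and 2.17 for each *hh* count in WT and 0.515 and 1.57 in *sws1*, which overlapped because *hh* differed between the replicates.

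**Figure D3:**
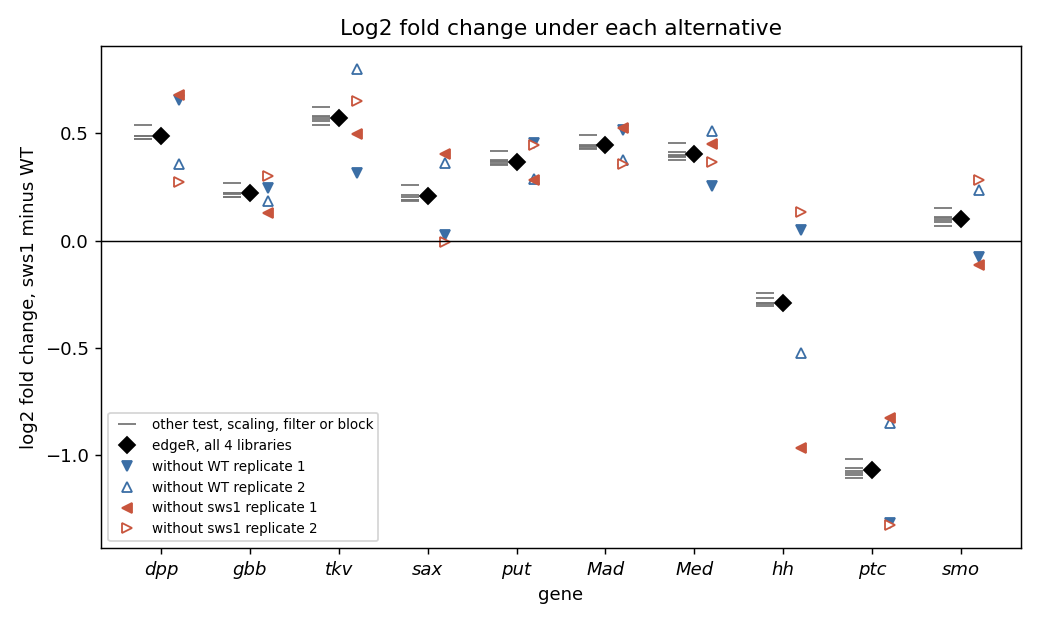
Log2 fold change of each gene (vertical axis, *sws1* minus WT) with edgeR on all 4 libraries (diamonds), with other tests, scalings, filters or a replicate block (dashes) and with 1 library left out (triangles). Values of *ptc* stay between −1.33 and −0.82, while *sax*, *hh* and *smo* reach or cross 0 when a library is left out.

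The counting assigned reads to annotated transcripts, of which 23 belong to the 10 genes. For *gbb*, *sax*, *put*, *Mad* and *Med*, 1 transcript held the most counts in all 4 libraries, and *hh*, *ptc* and *smo* have a single transcript each. *dpp* and *tkv* each have 4 transcripts that begin at 4 different start sites, and for these the split differed between libraries. Within each of these genes the transcripts end at the same position. How the counting treated reads shared by transcripts is not given in the sources used here. The split is therefore one of assigned counts, and use of the start sites was not tested. Of the *dpp* transcripts, dpp-RC, which starts at 2451229 on 2L, had 64 and 31 counts in WT against 24 and 20 in *sws1*. The transcript dpp-RA, with its start at 2428372, had 15 and 8 counts in WT against 10 and 21 in *sws1*.

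The remaining *dpp* transcripts were assigned counts in 1 library each. The transcript dpp-RB, starting at 2450193, had 22 counts in *sws1* replicate 2 and 0 in the others, and dpp-RE, starting at 2454737, had 18 counts in *sws1* replicate 1 and 0 in the others. Taken alone, dpp-RC had a log2FC of −0.56 (adjusted p = 0.567, edgeR on transcripts), opposite in sign to the sum over the gene. The share of dpp-RC fell outside the WT values in both mutant libraries, at 81.0% and 79.5% of the counts of *dpp* in WT against 46.2% and 31.7% in *sws1*. No test was made of these shares, and 0 of the 14159 transcripts tested across the table were called by edgeR (0%), with 2413 at an unadjusted p under 0.05.

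For *tkv*, tkv-RC (start at 5244139 on 2L, minus strand) had 39 and 31 counts in WT against 67 and 29 in *sws1*, and tkv-RD (start at 5237362) had 40 and 43 counts in WT against 28 and 42 in *sws1*. The main transcript was therefore tkv-RD in 3 libraries and tkv-RC in *sws1* replicate 1, and the split differed more between the *sws1* replicates than between the genotypes. Neither transcript passed the test alone (adjusted p = 0.507 for tkv-RC and 0.933 for tkv-RD, edgeR). The single transcript of *ptc*, with the same counts as the gene, had a log2FC of −1.08 and an adjusted p of 0.312 in the fit over transcripts.

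**Figure D4:**
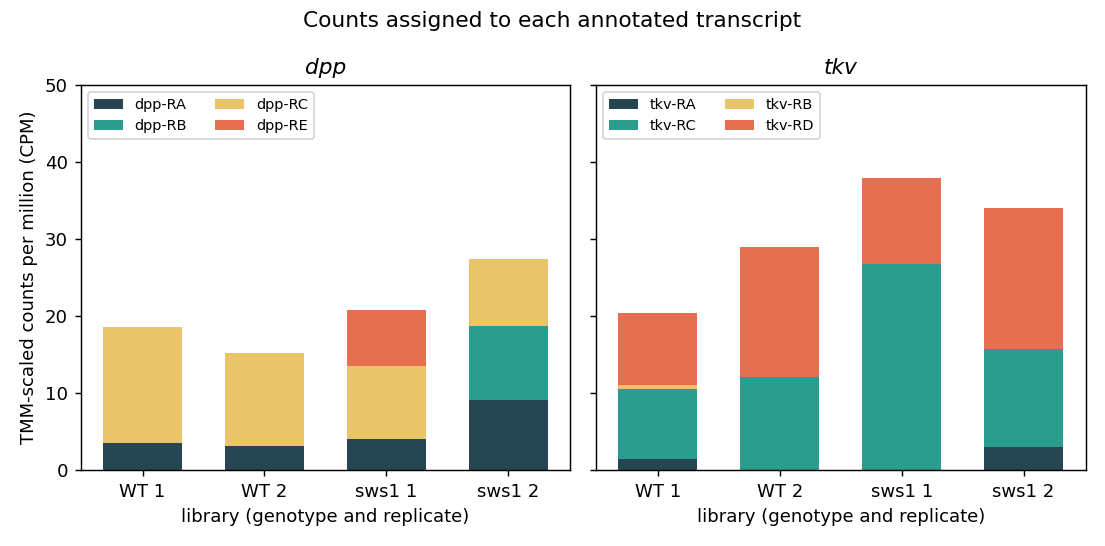
Counts of each annotated transcript of *dpp* and *tkv* (stacked bars, TMM-scaled CPM) in the 4 libraries. The dpp-RC segment is the largest in WT and in *sws1* replicate 1, and dpp-RB and dpp-RE appear only in single *sws1* libraries.

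*Med*, *smo* and *tkv* share exon bases with genes on the opposite strand, and the strand setting of the counting is not given in the sources used here. *Med* shares 331 bases with *CycG*, which had 919 to 1587 counts, and 92 bases with *Mnat9*, which had 21 to 50. *smo* shares 498 bases with *CG11601* (144 to 331 counts) and 587 bases with *CG17078* (51 to 101 counts). *tkv* shares 54 bases with *TpnC25D* (3 to 5 counts) and 158 with the pseudogene *CR14033*. No exon of *ptc*, *hh*, *dpp*, *gbb*, *sax*, *put* or *Mad* is shared with another annotated gene.

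Of the other BMP and activin genes, a list of 30 of which 23 could be tested, few were called. *Fur2*, a proprotein convertase that can cleave BMP precursors, rose, and *bgcn*, the partner of Bam in germline differentiation, fell. With 1 gene higher and 1 lower, 8.70% of the 23 were called, against 20.9% of all tested genes. The median log2FC of the list was 0.21, against 0.02 for all tested genes, and 17 of its 23 values were positive. Libraries of the genotypes did not overlap in CPM for 15 of the 23, against 60.2% of all tested genes. With edgeR, 6 of the 23 had an unadjusted p under 0.05, against 33.1% of all tested genes. *Fur2* had 75 and 38 counts in WT against 59 and 63 in *sws1* (log2FC 0.63, SE 0.22, adjusted p = 0.0474, edgeR). This call was made in 3 of 10 alternatives and in none of the fits that left out a library. *bgcn* had 211 and 187 counts in WT against 67 and 93 in *sws1* (log2FC −0.85, SE 0.23, adjusted p = 0.0171, edgeR), and it was not called with DESeq2 (adjusted p = 0.0665), without *sws1* replicate 1 (0.0793) or without WT replicate 2 (0.0583).

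Receptors and Smads of the same family did not pass the test. The type II receptor gene *wit* had 47 and 28 counts in WT against 38 and 30 in *sws1* (log2FC 0.36, adjusted p = 0.388, edgeR), and *babo*, the type I receptor of the activin branch, had 68 and 37 against 36 and 42 (0.09, adjusted p = 0.843, edgeR). *Smox*, the activin Smad, had 111 and 83 counts in WT against 72 and 106 in *sws1*, with a log2FC of 0.37 (adjusted p = 0.278, edgeR).

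Of the genes that read out the BMP signal, *Dad*, an inhibitory Smad that is induced by the pathway, had 53 and 26 counts in WT against 32 and 40 in *sws1*. Its log2FC of 0.39 (95% interval −0.19 to 0.96, adjusted p = 0.352, edgeR) was near that of the BMP members, without passing the test. *bam*, which BMP signalling represses in germline stem cells, had 33 and 15 counts in WT against 17 and 21 in *sws1* (log2FC 0.19, 95% interval −0.55 to 0.92, adjusted p = 0.757, edgeR). The interval holds changes in both directions, so a rise or a fall of *bam* could not be told apart from no change. The 7 genes of the list below the filter were *scw*, *daw*, *tsg*, *tld*, *nord*, *brk* and *bi*, with 0 to 17 counts in a library.

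The list of other Hedgehog genes held 20 genes, of which 17 could be tested, with a median log2FC of −0.12 and 6 positive values. The kinase genes *sgg* and *Pka-C1* were the 2 called (11.8%, against 20.9% of all tested genes), both higher in *sws1*. Their products phosphorylate the transcription factor Ci and so promote its processing to a repressor. *sgg* had 483 and 235 counts in WT against 349 and 367 in *sws1*, or a log2FC of 0.53 (SE 0.14, adjusted p = 0.00936, edgeR). *Pka-C1* had 256 and 144 counts in WT against 192 and 193 in *sws1*, or 0.46 (SE 0.15, adjusted p = 0.0376, edgeR). DESeq2 called neither, with adjusted p values of 0.0823 for *sgg* and 0.334 for *Pka-C1*. Without a single library, whichever it was, *Pka-C1* was not called, and *sgg* was not called without WT replicate 2 (adjusted p = 0.121) or *sws1* replicate 2 (0.0742). Both kinases act in several other pathways.

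**Figure D5:**
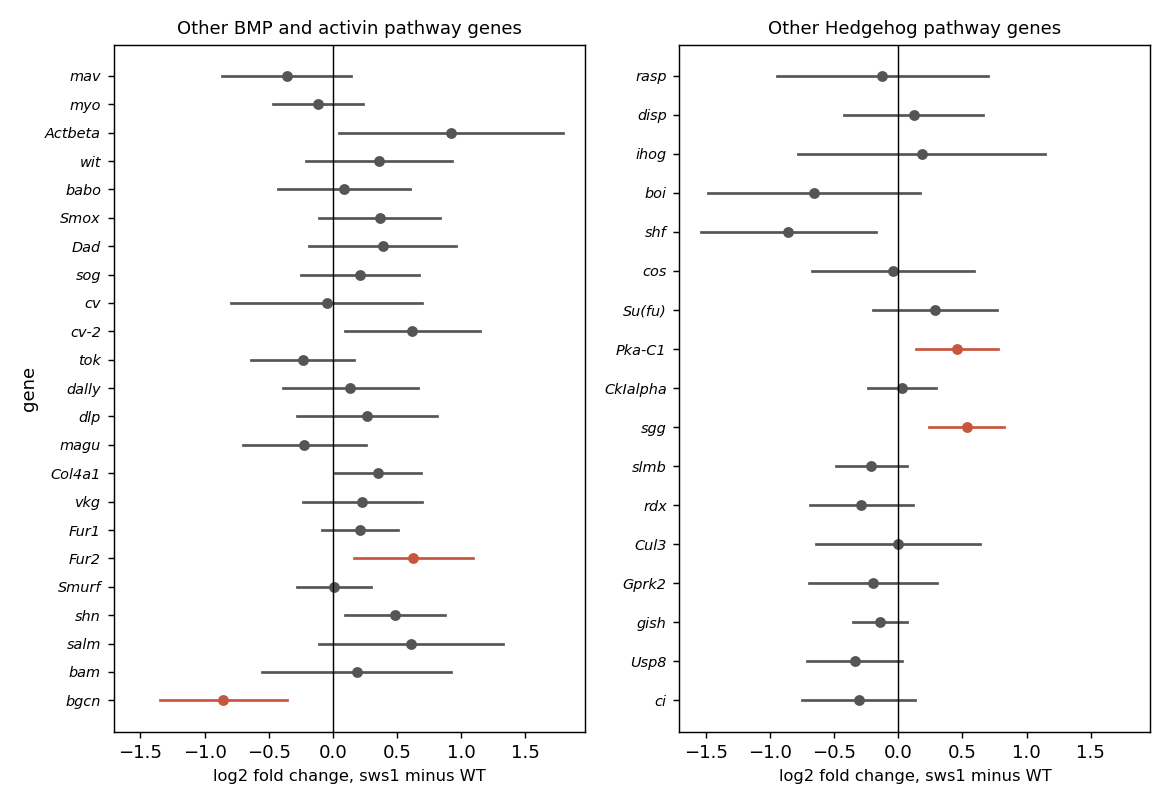
Log2 fold change (horizontal axis, *sws1* minus WT, edgeR) with 95% intervals for the 23 tested genes of the other BMP and activin genes (left) and the 17 tested genes of the other Hedgehog genes (right). Red marks the 4 called genes, *Fur2*, *bgcn*, *Pka-C1* and *sgg*.

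Of the genes between *smo* and the nucleus, *ci*, which encodes the transcription factor of the pathway, had 165 and 95 counts in WT against 94 and 54 in *sws1*. Its log2FC was −0.31 (95% interval −0.75 to 0.13, adjusted p = 0.330, edgeR). *cos*, a kinesin-like scaffold, had 47 and 25 counts in WT against 28 and 21 in *sws1* (−0.04, adjusted p = 0.938, edgeR), and *Su(fu)*, which binds Ci, had 65 and 47 against 47 and 50 (0.28, adjusted p = 0.428, edgeR). The kinase gene *fu* was below the filter with 9 and 5 counts in WT against 7 and 6 in *sws1*. *disp*, required to release the ligand, had 53 and 40 counts in WT against 35 and 37 in *sws1* (0.12, adjusted p = 0.797, edgeR).

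A few genes of ligand spread and reception lay lower in the mutant without passing the test and were singled out after their values were seen. *shf*, which helps the ligand to spread, had 61 and 26 counts in WT against 15 and 18 in *sws1* (log2FC −0.86, adjusted p = 0.0687, edgeR). The co-receptor gene *boi* had 28 and 21 counts in WT against 9 and 13 in *sws1* (−0.66, adjusted p = 0.265, edgeR), whereas its relative *ihog* had 12 and 17 against 14 and 10. The homeobox gene *en*, which drives *hh* in the posterior wing disc, was below the filter, with 17 and 9 counts in WT against 1 and 3 in *sws1*.

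Markers of the cells that send and receive these signals are given beside the members. Of 3 hub markers, *Fas3* rose (155 and 119 counts in WT, 156 and 179 in *sws1*, log2FC 0.77, adjusted p = 0.00345, edgeR), while *upd1* (0.42, adjusted p = 0.463) and *CadN* (−0.20, adjusted p = 0.525) did not pass the test of edgeR. *Fas3* is also a septate junction gene and is not restricted to the hub. The summed level of the 3 was 85.8 and 90.8 CPM in WT against 97.8 and 132 CPM in *sws1*. The 5 markers of cyst stem cells and cyst cells summed to 192 and 179 CPM in WT and to 189 and 243 CPM in *sws1*. Among them *tj* rose (25 and 10 counts against 31 and 45, log2FC 1.64, adjusted p = 0.00136, edgeR) and *zfh1*, the marker of cyst stem cells, had 52 and 34 counts in WT against 31 and 35 in *sws1* (0.12, adjusted p = 0.802, edgeR).

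The planned germline marker *nos* had no match by symbol in the annotation and was left out. Of the 6 markers of germline stem cells and spermatogonia that remained, 5 were tested, with *esg* higher and *bgcn* lower. The 6, *bam* among them, summed to 86.7 and 104 CPM in WT against 63.8 and 85.9 CPM in *sws1*. Of the WT sums, *bgcn* alone made up 49.6 and 73.2 CPM, and of the *sws1* sums 26.7 and 40.5 CPM. *zpg* and *esg* lay above WT in both *sws1* libraries, and *vas*, *bam* and *ovo* overlapped between genotypes, so the lower sums rest on *bgcn*. Of 10 spermatocyte markers *can* and *sa* were lower, and the list summed to 1442 and 1479 CPM in WT against 1179 and 1355 CPM in *sws1*. Of 6 muscle sheath markers *Mlc2* and *Act57B* were higher, with sums of 468 and 532 CPM in WT against 652 and 514 CPM in *sws1*. Of 4 fat body markers *apolpp* was higher, with sums of 341 and 298 against 654 and 593 CPM. These sums were nearly all *apolpp*, which alone had 335 and 292 against 650 and 583 CPM. *Lsp2* overlapped between genotypes and did not pass the test. *to*, below the filter, had 12 and 3 counts in WT against 2 and 1 in *sws1*, and *Fbp1* had at most 1 count in a library. Of 4 ejaculatory duct and bulb markers *Dup99B* and *Est-6* were higher, with sums of 10.6 and 20.3 against 279 and 275 CPM, and *EbpII* had at most 1 count in a library. The 4 hemocyte markers summed to between 149 and 198 CPM, and 0 were called by edgeR, with 1 at an unadjusted p under 0.05, *NimC1*. With DESeq2, *Fas3*, *tj*, *esg*, *bgcn*, *can* and *Act57B* were not called. Without at least 1 of the libraries, *Fas3*, *esg*, *bgcn*, *can*, *sa* and *Act57B* lost their call in edgeR, and *Dup99B* lost it with no filter on low counts. *Act57B* was also not called with DESeq2's size factors or a replicate block. Markers named here were singled out after their values were seen, and the part of these cell types in the values of the BMP and Hedgehog genes was not tested.

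For comparison with other signals of the niche, 8 genes of a JAK-STAT list and 17 of an EGFR list were tested in the same fit. In the JAK-STAT list 62.5% were called, with *upd3*, *dome*, *Socs36E* and *ken* higher and *Ptp61F* lower, and the median log2FC was 0.49. In the EGFR list 23.5% were called, with *Krn*, *stet* and *drk* higher and *rho* lower, and the median was 0.10, where the share over all tested genes was 20.9%. With DESeq2, *Socs36E* was the only one of these 9 genes called, and each of them except *Socs36E* and *ken* lost its call in edgeR without at least 1 of the libraries. Few counts underlie the call of *upd3*, with 7 and 5 in WT against 17 and 9 in *sws1*. The same holds for *stet*, with 3 and 2 in WT against 14 and 10 in *sws1*. No test of the difference between these lists and the BMP and Hedgehog genes was made.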

How the data were processed

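RNA of testes from 2 WT and 2 *sws1* samples was sequenced after removal of ribosomal RNA, from directional libraries in paired-end mode. Trimmomatic, HISAT2 and HTSeq served the authors for trimming, mapping and counting per transcript, and the deposited values are whole-number counts without normalization. The genome release, the strand setting and the treatment of reads shared by transcripts are not given in the sources used here. Of 29939 transcripts, 29929 matched the BDGP6.54 annotation of Ensembl, and counts were summed per gene.

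The test of genotype used edgeR 4.0.16 under R 4.3.3 (filterByExpr, TMM, robust quasi-likelihood test, genotype as the only term, Benjamini-Hochberg adjustment). Standard errors were taken from the log2FC and its F statistic, and 95% intervals from these. Alternatives were DESeq2 1.42.0, other scalings, filters, thresholds and edgeR's glmTreat, a replicate block, transcripts as the unit and each library left out. The fit was tested on simulated data: p-values of unchanged genes were under 0.05 about as often as their level, but when genes kept their own dispersions the share of false calls exceeded the nominal level, most of them among the most variable genes. Named were the 10 members, core genes and called genes of the pathway lists, *sws*, and genes over exons of a member. Also named were markers of cell types, and *shf*, *boi*, *ihog* and *en*, which were singled out after their values were seen. The members and lists were chosen with earlier results of these data known. The replicates are biological according to the study. P-values measure a difference against the spread between libraries, with 2 per genotype. The fit estimates this spread for each gene in part from the other genes.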

Additional observations from a re-analysis of the deposited data

How the results depend on the processing

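The number of called genes in the whole table was 2013, and it was 994 with DESeq2, 991 with glmTreat and 593 with an absolute log2FC above 1. Of the 10 members, 1 was called with edgeR, 0 with DESeq2 (1 at an unadjusted p under 0.05), and 2 with upper-quartile scaling, with no filter, with at least 10 counts in every library or with an adjusted p under 0.1, the second being *tkv* each time. With 1 library left out, between 0 and 1 members were called, and the 1 called without WT replicate 2 was *tkv* instead of *ptc*. Of the other pathway genes, 4 were called with edgeR, 0 with DESeq2, with glmTreat or with an absolute log2FC above 1, 7 with an adjusted p under 0.1, and between 1 and 2 with 1 library left out.

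Directions turned for *sax* without *sws1* replicate 2 (log2FC −0.0063), for *hh* without WT replicate 1 (0.05) or *sws1* replicate 2 (0.13), for *smo* without WT replicate 1 (−0.08) or *sws1* replicate 1 (−0.11), and for *dpp* with the transcript dpp-RC as the unit (−0.56). With single libraries left out, log2FC values ran from −0.0063 to 0.40 for *sax*, from −0.97 to 0.13 for *hh* and from −0.11 to 0.28 for *smo*. The other members kept their direction in the 10 alternatives on counts per gene. Over these alternatives, all tested genes had a median log2FC between 0.01 and 0.07.

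The labels number the replicates 1 and 2 in both genotypes but give no shared batch. The deviations of same-numbered libraries had a correlation of −0.0077 over 9634 genes. With the replicate number as a block, 2104 genes, 1 member (*ptc*, adjusted p = 0.0152, edgeR) and 3 of the other pathway genes were called. The members had between 14 and 193 counts in a library, which limits what could be detected.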
